A study of Fundulus heteroclitus with 15 samples.

Results

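The cell cycle and DNA replication genes described here are the probes of a mummichog liver array whose names carry 1 of 6 protein names: a DNA replication licensing factor, the cell division control protein 2 homolog, ribonucleoside-diphosphate reductase, proliferating cell nuclear antigen, a G2/mitotic-specific cyclin or DNA topoisomerase 2. The names matched 4 of the 7152 gene probes. These were MCM2 (probe An_u_9206), the large and small subunits of ribonucleotide reductase, RRM1 (An_u_17416) and RRM2 (An_u_17418), and CDK1 (An_u_6178, named as the cell division control protein 2 homolog). The other 3 names, for proliferating cell nuclear antigen, the G2/mitotic-specific cyclins and DNA topoisomerase 2, matched no probe analysed here.

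The mummichog (Fundulus heteroclitus) is a small estuarine killifish of the North American Atlantic coast. Adult females were kept for 14 days in water with EE2 (ethinylestradiol, the synthetic oestrogen of contraceptive pills) at 0, 50 or 250 ng/L, and total liver RNA was hybridised to 15 Agilent arrays read in 1 colour, 5 biological replicates per group. The controls are the 0 ng/L group. The labels state neither whether they received a solvent nor whether fish were pooled for an array. Below, a level is the log2 signal of a probe minus the 75th percentile of its array, and a difference of 1 between levels is a doubling of relative signal. Levels are compared between arrays for the same probe only.

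Before a cell copies its genome, a ring of MCM proteins is loaded onto DNA as the helicase that will open the double strand, while ribonucleotide reductase supplies the deoxynucleotides. CDK1, paired with a mitotic cyclin, later drives the cell into mitosis. In mammals and fish these genes are mostly expressed in dividing cells, and hepatocytes of an adult liver are mostly at rest. The study's question, as its title and design give it, was what EE2 does to signalling and expression in this species at both concentrations.

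None of the 3 probes that could be tested changed with EE2 by the test used. At 250 ng/L the mean of MCM2 lay 2.34 above that of the controls on the log2 scale (5.06-fold) and the mean of CDK1 0.99 above (1.98-fold), but replicates of one group were spread widely and the groups overlapped. The MCM2 probe was well above background on only 10 of 15 arrays, so the size of its fold is uncertain. RRM1 differed by 0.05. At 50 ng/L the corresponding differences were 0.97 for MCM2, 0.20 for CDK1 and -0.27 for RRM1. The fourth probe, RRM2, was not well above background on any of the 15 arrays. By limma with Benjamini-Hochberg adjustment over all 6145 probes tested, 0 of the 3 tested probes had an adjusted p under 0.05 in any of the 3 comparisons. At an unadjusted p under 0.05 the count was 1, MCM2 at 250 ng/L against control. As background, that adjusted threshold was passed by 0.553% of all tested probes at 50 ng/L against control, by 2.7% at 250 ng/L against control and by 1.09% between the doses. The unadjusted threshold was passed by 4.1%, 13.7% and 8.14% of all tested probes in the same order. In whole tissue, fewer cells of a type and less RNA per cell cannot be told apart, and this holds for every value below.

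The arrays themselves were unequal in brightness, with 75th percentiles from 544 to 3576 signal units and from 75.6% to 91.7% of probes well above background. They were made on 2 slides: slide 1 holds 2 control, 2 low-dose and 3 high-dose arrays, and slide 2 holds 3, 3 and 2. Of 42 hepatocyte marker probes, 40 were well above background on every array. Probes for exocrine pancreas enzymes, 53 of 60 of them well above background on every array, varied widely between arrays. Their summed level (log2) ran from 5.53 in control replicate 2 to 9.62 among controls, from 7.84 to 10.74 at 50 ng/L, and from 8.21 to 11.19, in replicate 3, at 250 ng/L. No pancreas probe passed the test at 250 ng/L by limma (1 of 60 at an unadjusted p under 0.05, beside 13.7% of all tested probes). Of the 60, 51 had a mean above that of the controls, beside 44.7% of all tested probes. In control replicate 2 the mean level over the 60 was -2.33, against -0.15 to 0.68 in the other controls. That array lowers the control means.

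MCM2 is a subunit of the MCM helicase, which unwinds DNA ahead of the replication fork. Its level in control replicates 1 to 5 was -7.42, -5.81, -9.18, -7.14 and -6.74. At 50 ng/L it was -7.65, -5.96, -5.99, -4.62 and -7.22, and at 250 ng/L it was -2.87, -6.10, -7.20, -3.77 and -4.64. Replicates 1, 4 and 5 at 250 ng/L lay above every control, and replicates 2 and 3 lay within the control range. The low-dose arrays spread across the control range, and replicate 4 alone stood above it.

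The MCM2 probe was dim. Its signal was 4.26 to 26.2 in controls and 204 at its highest, in replicate 4 at 250 ng/L, against that array's own 75th percentile of 2785. It was well above background on 10 of 15 arrays: 3 control, 3 low-dose and 4 high-dose. The arrays on which it was not were control replicates 1 and 3, low-dose replicates 1 and 5 and high-dose replicate 2. MCM2 levels on those arrays, which are not in every case the lowest of their group, are the least certain.

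Group means of MCM2 were -7.26 ± 1.23 in controls, -6.29 ± 1.19 in the low-dose and -4.92 ± 1.75 in the high-dose group (SD, n = 5 each). The high-dose mean exceeded the control mean by 2.34 ± 0.809 (SE; 95% interval 0.62 to 4.06; limma adjusted p = 0.187), with 5 of 5 high-dose arrays above the control mean. Of these, replicate 3, at -7.20, lay only just above that mean and below the control median of -7.14. The 95% intervals, here and for the other members, are not adjusted for the number of probes. For this MCM2 difference the unadjusted limma p was 0.0112, and the adjusted p is over all 6145 probes tested. The low-dose difference of 0.97 ± 0.809 had an interval of -0.75 to 2.69 (limma adjusted p = 0.999), and the doses differed by 1.37 (limma adjusted p = 0.748). On slide 1 alone the high-dose difference was 1.22 and on slide 2 alone 3.48. With normexp background correction, which draws dim probes together, it was 1.01 (limma adjusted p = 0.355). With dim levels raised to the lowest level well above background, an alternative added later, it was 2.04 (limma adjusted p = 0.203).

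Ribonucleotide reductase reduces ribonucleotides to deoxyribonucleotides, with the catalytic site in RRM1 and the radical that starts the reaction held by RRM2. The RRM1 probe was well above background on all 15 arrays. Its level in control replicates 1 to 5 was -1.57, -1.92, -1.98, -2.64 and -2.13. Exposed arrays gave -2.16, -2.93, -1.69, -2.11 and -2.73 at 50 ng/L, and -2.41, -2.0, -1.25, -1.86 and -2.48 at 250 ng/L. The 3 groups overlapped over most of their ranges, with the highest value in high-dose replicate 3 and the lowest in low-dose replicate 2. Means were -2.05 ± 0.389, -2.32 ± 0.499 and -2.0 ± 0.495 (SD, n = 5 each). The high-dose difference of 0.05 ± 0.29 (SE) had a 95% interval of -0.57 to 0.67 (limma adjusted p = 0.967). The low-dose difference of -0.27 had one of -0.89 to 0.34 (limma adjusted p = 0.999).

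RRM2, the subunit whose supply limits the enzyme outside S phase in mammals, gave no usable level. Its signal, the geometric mean of 2 spots, was 1.19 to 10.4 over the 15 arrays. The highest, in low-dose replicate 5, came from 1 spot at 71.6 while the other spot read 1.52. No fold is given for it, and its position in each group carries no order.

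**Figure D1:**
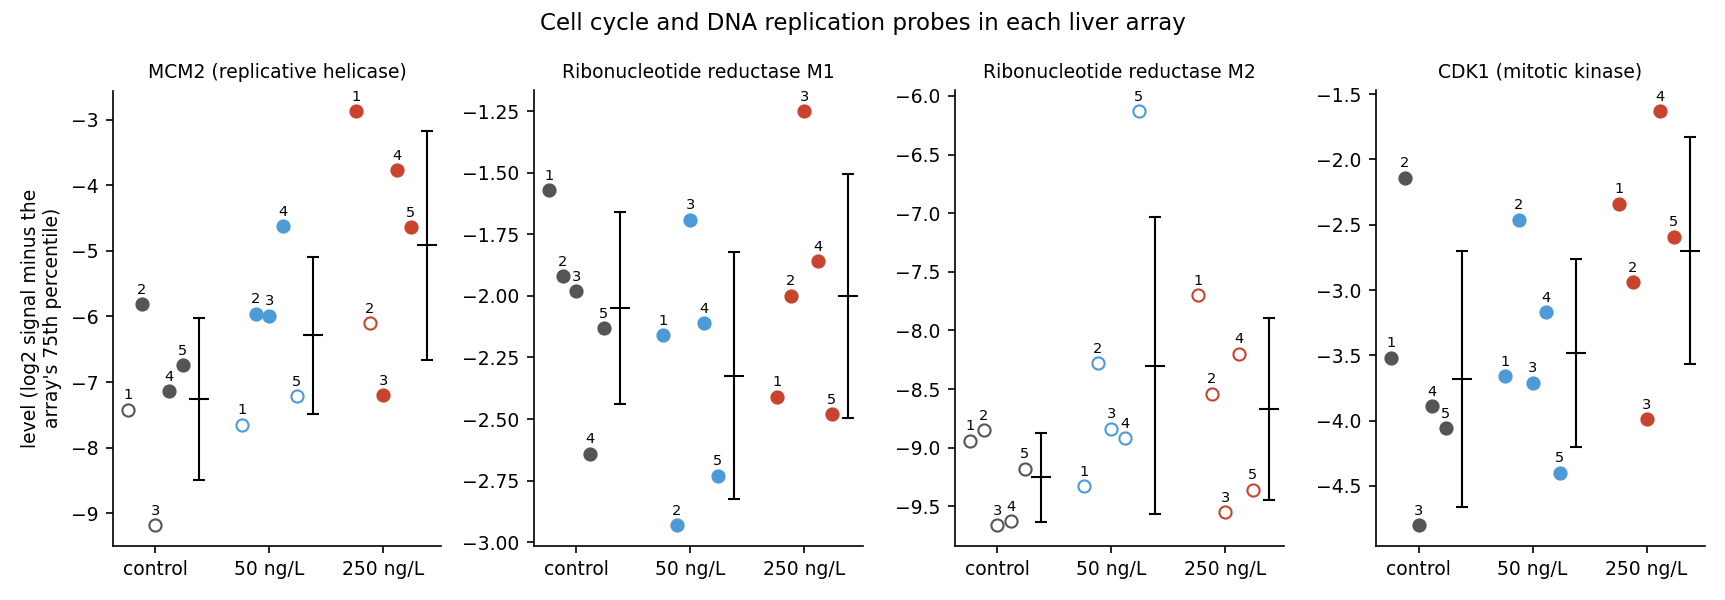
Level of each probe (log2 signal minus the array's 75th percentile, vertical axis, with its own scale in each panel) in every array by EE2 group; points are arrays labelled by replicate number, open points were not well above background, and black bars are the mean ± SD of 5 arrays. MCM2 and CDK1 have their highest group mean at 250 ng/L with overlapping groups, the 3 groups of RRM1 overlap over most of their ranges, and RRM2 has open points only.

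CDK1 is the kinase that, with cyclin B, triggers entry into mitosis. The probe was well above background on all 15 arrays, with signals of 34.6 to 899. Control replicates 1 to 5 had levels of -3.52, -2.14, -4.80, -3.89 and -4.06. At 50 ng/L the levels were -3.66, -2.46, -3.71, -3.17 and -4.40, and at 250 ng/L they were -2.34, -2.94, -3.99, -1.63 and -2.59. High-dose replicate 4 alone exceeded the highest control, which was replicate 2. High-dose replicate 3 lay among the controls, and the other 3 lay between the highest and the second highest control.

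CDK1 means were -3.68 ± 0.98, -3.48 ± 0.716 and -2.70 ± 0.866 (SD, n = 5 each) for control, 50 and 250 ng/L. The high-dose mean exceeded the control mean by 0.99 ± 0.502 (SE; 95% interval -0.08 to 2.05; limma adjusted p = 0.428). At 50 ng/L the difference was 0.20 (interval -0.86 to 1.27; limma adjusted p = 0.999), and between the doses it was 0.78 (limma adjusted p = 0.761). The slides did not share a direction at the high dose: the difference was -0.26 on slide 1, where the highest control lies, and 2.14 on slide 2, where both high-dose arrays stood above the 3 controls. With slide as a block it was 0.91. Whether the slides differ in response was not tested.

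The spread between replicates was not the same for the 3 tested probes. The within-group SD of MCM2 was 1.41, at the 95.5th percentile of all tested probes, whose median was 0.473. Among 501 probes of like mean level (within 0.5) it stood at the 94.6th percentile. CDK1 had an SD of 0.861, at percentile 86.1, and RRM1 one of 0.464, at percentile 48.8.

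MCM2 and CDK1 tended to be high and low on the same arrays. Over the 15 arrays, after each group's mean was taken off, Pearson's r between them was 0.77 (permutation p = 0.00262, adjusted over 3 pairs 0.00786) and Spearman's rho 0.75 (permutation p = 0.00528, adjusted 0.0158). Without the 2 arrays farthest from the median of CDK1, r was 0.73, and it was 0.81 within slide 1 (7 arrays) and 0.86 within slide 2 (8 arrays). MCM2 was well above background on only 10 of the 15 arrays, and all 15 enter these values, so they are less certain. For RRM1, r was -0.21 against CDK1 and -0.28 against MCM2 (permutation p, adjusted, 0.468 for both). Its sign was not stable: r was -0.61 and -0.63 within slide 1 but 0.19 and 0.24 within slide 2. Without the 2 arrays farthest from the median of RRM1, r was 0.17 and -0.04. Array brightness, as the log2 75th percentile with group means taken off, had an r of -0.10 with CDK1 and -0.35 with MCM2. Levels already have that percentile subtracted, so these values cannot decide the part of brightness, which was not tested.

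Within groups the pancreas signal differed between arrays in the other direction. After group means were taken off, the median r of the 60 pancreas probes was -0.55 with CDK1 and -0.41 with MCM2, against -0.01 for all tested probes with either. Between groups the direction was the same: at 250 ng/L against control the median difference of the pancreas probes was 1.1, with 51 of 60 above 0. Leukocyte probes had a median r of -0.02 with CDK1 and -0.16 with MCM2. The mean level of the 39 tested leukocyte probes ran from -2.74 to -1.17 in controls. It ran from -2.16 to -1.23 at 50 ng/L and from -2.86 to -0.83 at 250 ng/L. Summed leukocyte levels overlapped between groups, from 6.46 to 7.16 in controls, from 6.32 to 7.65 in the low-dose group and from 6.31 to 7.18 in the high-dose group. These correlations are descriptions over 15 arrays, whose probes share each array's scaling. The control array lowest in pancreas signal, replicate 2, was also the control highest in CDK1 and MCM2, and the high-dose array highest in pancreas signal, replicate 3, was the high-dose array lowest in both. Without these 2 arrays, an alternative added after their values were seen, the high-dose difference was 3.27 for MCM2 (limma adjusted p = 0.038) and 1.69 for CDK1 (limma adjusted p = 0.0441), and that of RRM1 was -0.11. The arrays left out are also those that most oppose the difference between groups, so these 2 calls are not independent of that choice. The part of pancreas tissue or of leukocytes in the result was not tested.

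**Figure D2:**
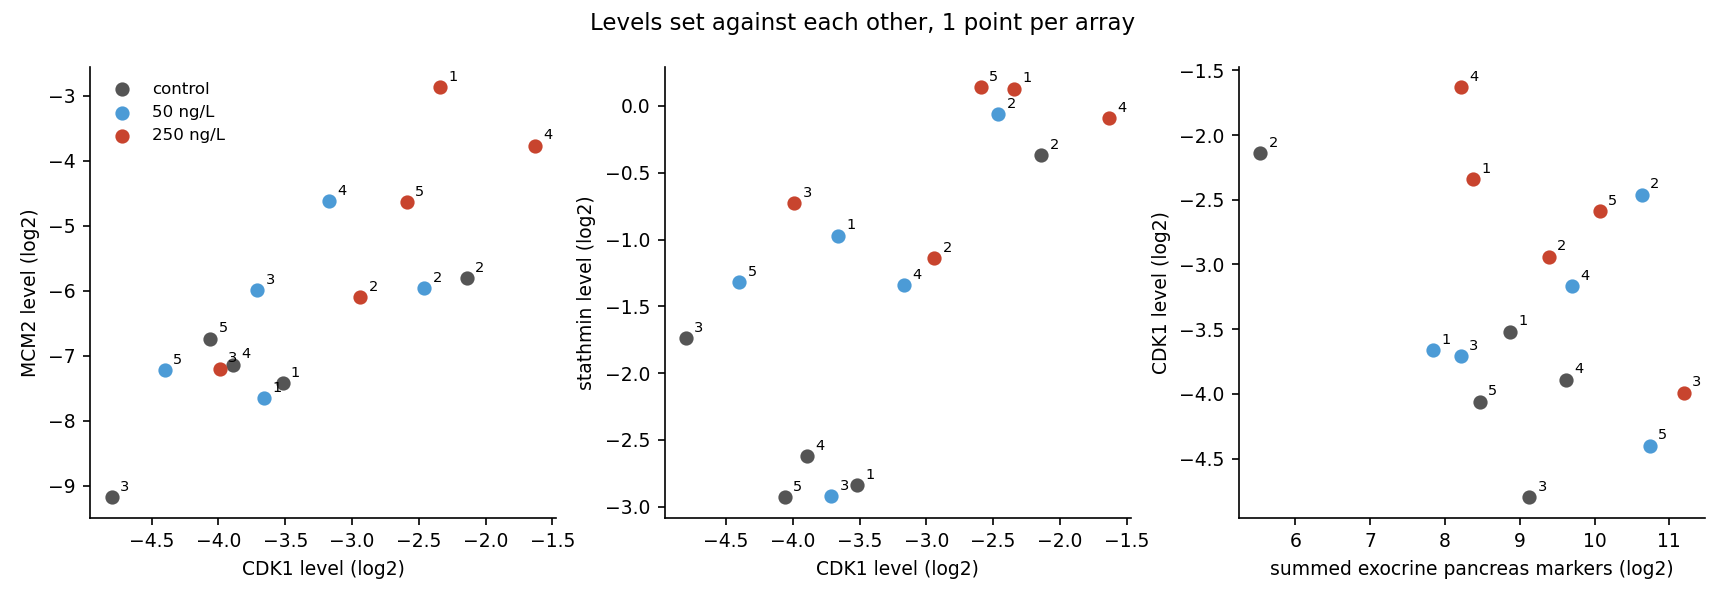
Left, MCM2 against CDK1; middle, stathmin (probe An_u_18486) against CDK1; right, CDK1 against the summed level of exocrine pancreas markers; all axes are log2 levels, and each point is an array, coloured by EE2 group and labelled by replicate. MCM2 and CDK1 tend to be high on the same arrays (r = 0.77 within groups, with MCM2 well above background on only 10 of 15 arrays). Control replicate 2 and high-dose replicate 3 sit at the ends of the pancreas axis.

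The wider pathway was read from 53 other probes in 4 lists, of which 44 were tested. At 250 ng/L against control 1 of 44 was called higher and 0 lower by limma, where 2.05% of all tested probes were called higher and 0.651% lower. At an unadjusted p under 0.05 there were 8 higher and 1 lower, where 6.2% of all tested probes were higher and 7.52% lower. The median difference of the 44 was 0.17, with 27 above 0, beside a median of -0.051 and 44.7% above 0 for all tested probes. At 50 ng/L 0 of 44 were called by limma, beside 0.553% of all tested probes, and 3 had an unadjusted p under 0.05, beside 4.1%. The median there was 0.01, beside -0.006 for all tested probes. Between the doses 1 of 44 was called, beside 1.09% of all tested probes, and the median was 0.16, beside -0.047. The probe called at 250 ng/L against control, and again against 50 ng/L, is the cyclin-dependent kinase inhibitor 1C, which restrains cyclin-dependent kinases and so holds cells out of the cycle.

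That inhibitor (CDKN1C, probe An_u_7114) rose at 250 ng/L. Control levels were -7.23 to -6.40, low-dose levels -6.99 to -5.63 and high-dose levels -4.66 to -3.17. No high-dose array overlapped the others, a separation upward from the controls that 2.52% of all tested probes showed. The difference was 2.97 ± 0.304 (SE; limma adjusted p = 1.2e-05) against control and 2.49 (limma adjusted p = 0.00197) against 50 ng/L. The probe was dim in controls, with signals of 9.8 to 29.2 and 4 of 5 arrays well above background, and with normexp background correction the difference from control was 1.39 (limma adjusted p = 0.0232). Within groups its level moved little with CDK1 (r = -0.09) or MCM2 (r = -0.12).

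Among 13 tested probes of the replication fork and of nucleotide supply, the median difference at 250 ng/L was 0.00 and 0 were called by limma. At an unadjusted p under 0.05 there were 2 of the 13, beside 13.7% of all tested probes. Flap endonuclease-1, which trims the flaps between Okazaki fragments, had the smallest p. Its control levels were -5.72, -4.17, -5.52, -3.97 and -5.12, and its high-dose levels were -3.30, -4.60, -4.64, -2.76 and -3.63. Replicates 1, 4 and 5, the same 3 high-dose arrays that were above all controls for MCM2, were above all controls here too. The probe was named for its small p in these same data and shares each array's scaling with MCM2, so the 2 are not independent. The difference was 1.11 ± 0.414 (SE; limma adjusted p = 0.236). Subunit 2 of DNA polymerase delta, the lagging-strand polymerase, differed by 0.57 (limma adjusted p = 0.326), with 4 of 5 high-dose arrays above every control. The remaining high-dose array, replicate 2, lay below every control at -6.15, and there this dim probe was not well above background. Differences were 0.45 for the 36 kDa subunit of activator 1 (replication factor C, which loads the sliding clamp; limma adjusted p = 0.523) and 0.61 for dUTPase, which keeps uracil out of DNA (limma adjusted p = 0.554).

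Of 8 tested mitosis and chromosome segregation probes, 7 had a high-dose mean above the controls, where 44.7% of all tested probes did. The median difference of the 8 was 0.39, beside -0.051 for all tested probes. The list holds 2 probes each for stathmin and the inner centromere protein. By limma 0 were called, and 2 had an unadjusted p under 0.05, a threshold that 13.7% of all tested probes passed. Both of these 2 were for stathmin, a protein that destabilises microtubules and is phosphorylated as the spindle forms. On probe An_u_18486 the control levels were -2.84, -0.37, -1.74, -2.62 and -2.93 and the high-dose levels 0.13, -1.14, -0.73, -0.09 and 0.14. The high-dose arrays lay above 4 of the 5 controls, and control replicate 2, also the highest control for CDK1, lay within the high-dose range. Differences were 1.77 ± 0.536 (SE) on this probe and 1.38 ± 0.466 on probe An_u_18487 (limma adjusted p = 0.12 and 0.176). Leaving out control replicate 2 gave 2.20 and 1.78 (limma adjusted p = 0.0196 and 0.0265), and leaving out control replicate 1 gave 1.58 and 1.15 (limma adjusted p = 0.257 and 0.367). They were 1.03 and 0.92 on slide 1 alone (limma adjusted p = 0.651 and 0.682) and 2.46 and 1.81 on slide 2 alone (limma adjusted p = 0.103 and 0.109). Both probes carry the same protein name, and whether they measure the same gene was not tested. The inner centromere protein, a scaffold of the chromosomal passenger complex, differed by 0.45 on probe An_u_12334 and 0.67 on probe AN_v_12335 (limma adjusted p = 0.551 and 0.667). Both of its probes were dim, and neither was well above background on every array.

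**Figure D3:**
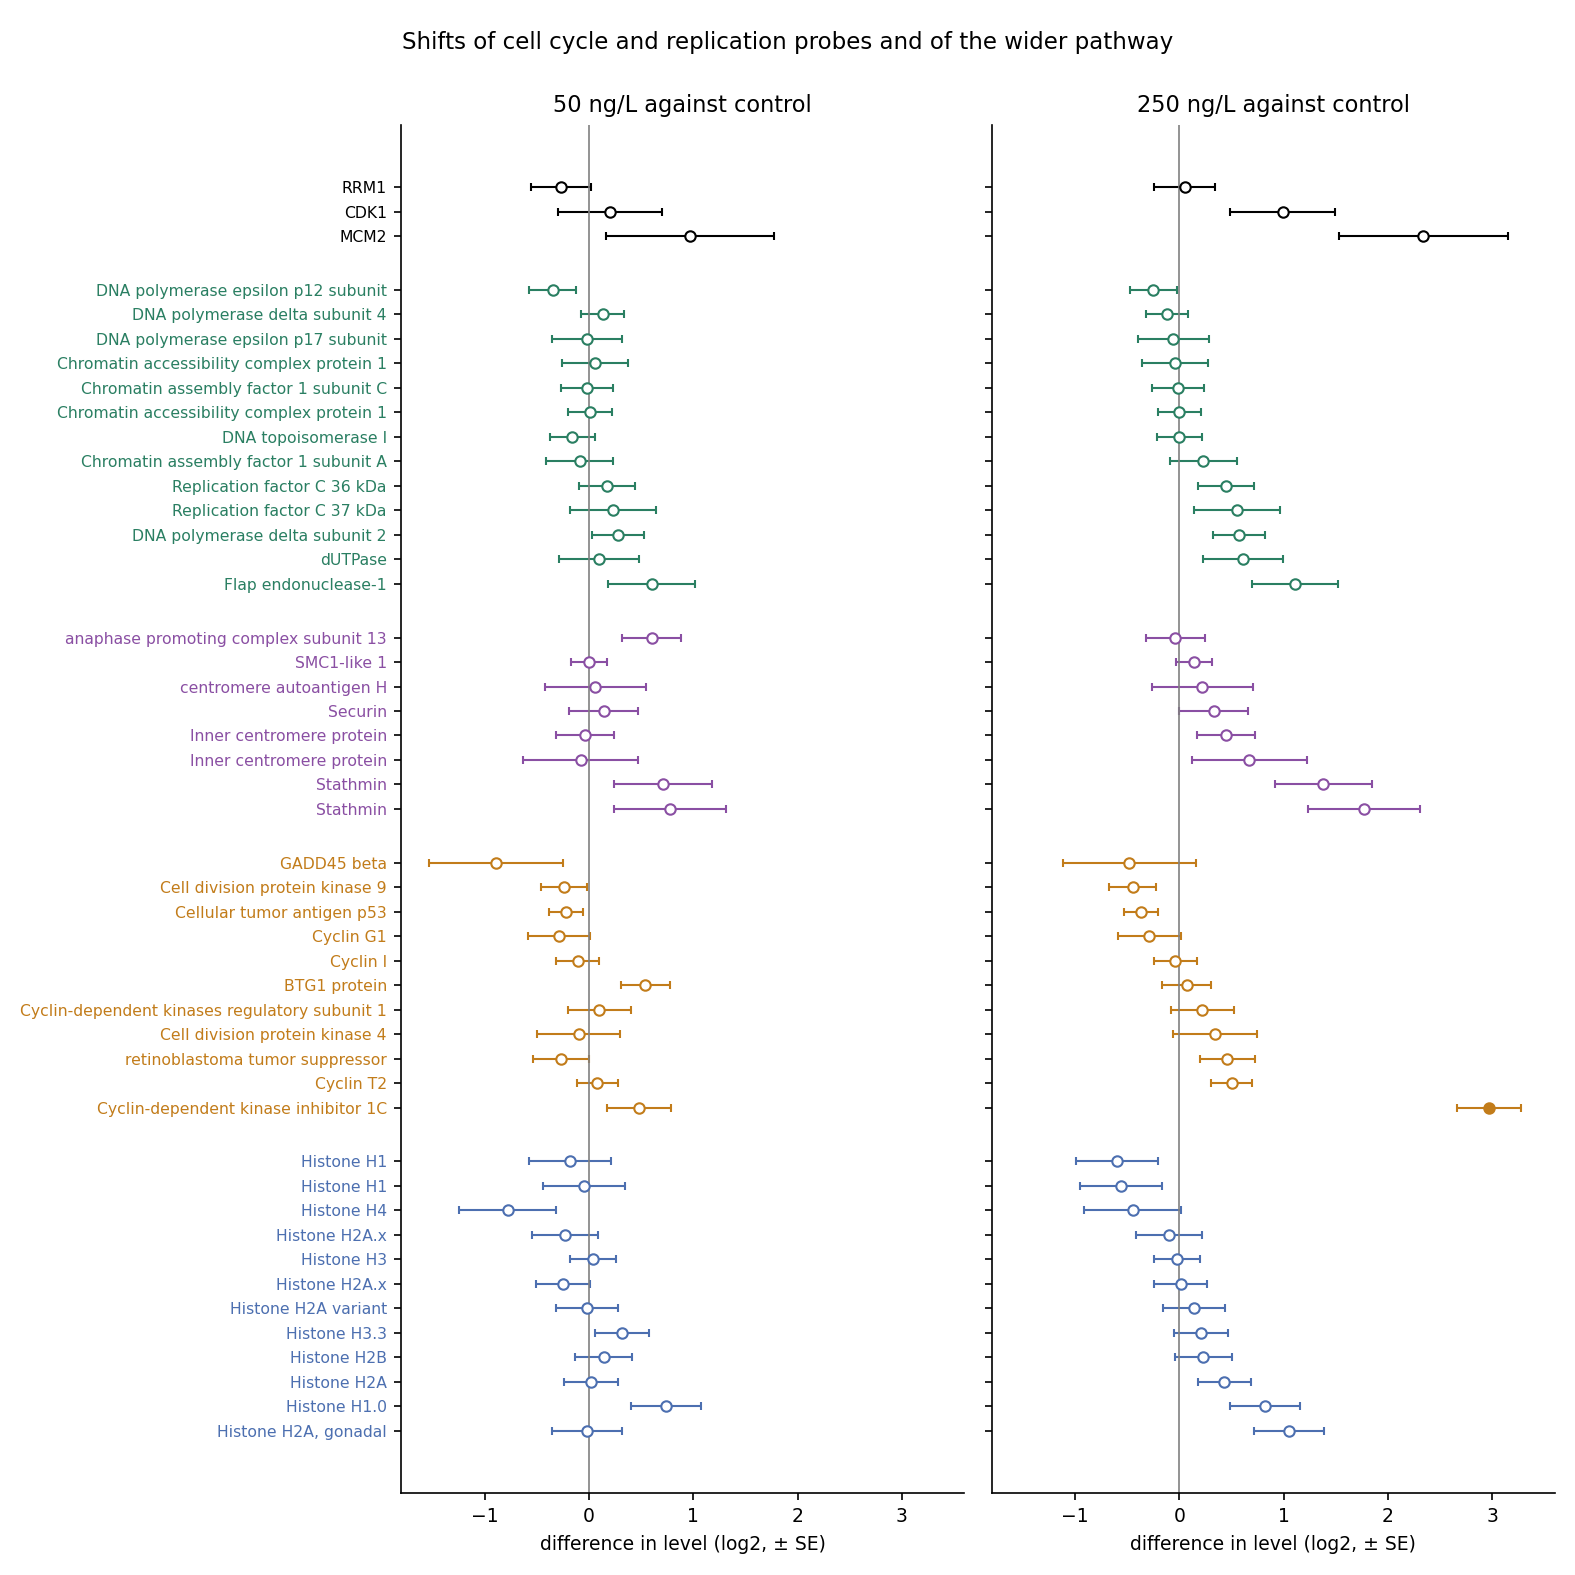
Difference in level from control (log2, horizontal axis, ± SE, 5 arrays per group) at 50 ng/L (left) and 250 ng/L (right) for the 3 tested cell cycle and replication probes (black) and 44 pathway probes: replication fork (green), mitosis (purple), cyclins, kinases and checkpoints (orange) and histones (blue). The only filled point, a limma adjusted p under 0.05, is cyclin-dependent kinase inhibitor 1C at 250 ng/L.

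The 11 tested cyclins, kinases and checkpoint genes had a median difference of 0.07 at 250 ng/L. Apart from the inhibitor above, those with the smallest p were cyclin T2 and CDK9, partners in transcription elongation rather than in the cell cycle, and p53, the checkpoint transcription factor. Cyclin T2 differed by 0.50 (limma adjusted p = 0.279) and CDK9 by -0.45 (limma adjusted p = 0.413). The p53 level was -3.62 to -3.28 in controls and -4.05 to -3.61 at 250 ng/L, ranges that barely touch, with a difference of -0.37 ± 0.163 (SE; limma adjusted p = 0.333).

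Histones are made in bulk during S phase, except for replacement forms such as H1.0, which accumulates in resting cells of mammals. Of 12 tested histone probes 0 were called by limma at 250 ng/L, and the median difference was 0.07. At an unadjusted p under 0.05 there were 2 of the 12, beside 13.7% of all tested probes. A probe named histone H2A, gonadal had high-dose levels of -3.08, -3.92, -3.44, -4.10 and -3.60 against -4.62, -4.15, -5.02, -3.82 and -5.78 in controls. These groups overlapped, and the difference was 1.05 ± 0.332 (SE; limma adjusted p = 0.141). All 5 high-dose arrays lay above all 5 low-dose arrays, a separation upward that 2.03% of all tested probes showed, with a difference of 1.06 (limma adjusted p = 0.246). Histone H1.0 had levels of -2.81 to -2.23 in controls, of -2.19 to -1.0 in low-dose and of -2.66 to -0.73 in high-dose arrays. Its low-dose arrays all lay above the controls (0.83% of all tested probes did so), by 0.74 on average with a limma adjusted p of 0.999, and its high-dose difference was 0.82 (limma adjusted p = 0.298). Other forms had differences of 0.43 (H2A, probe An_u_12107) and -0.60 (H1, probe An_u_12083), with limma adjusted p of 0.525 and 0.575.

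Several pathway probes were high on the arrays where CDK1 was high, and others were not. After group means were taken off, r with CDK1 over the 15 arrays was 0.88 for the 36 kDa subunit of activator 1, 0.83 and 0.80 for the inner centromere protein probes, 0.76 for dUTPase, 0.57 for flap endonuclease-1, and 0.56 and 0.57 for stathmin. Both inner centromere probes were dim, so their r is less certain. Probe AN_v_12335 was well above background on 5 control, 3 low-dose and 4 high-dose arrays, and probe An_u_12334 on 5, 4 and 5. Other named pathway probes ran from 0.42 for DNA polymerase delta subunit 2 to -0.31 for cyclin T2 and -0.33 for histone H1 (probe An_u_12083). The median r with CDK1 was 0.57 over the mitosis list and 0.28 over the replication fork list. It was -0.09 over cyclins, kinases and checkpoints and 0.06 over histones, against -0.01 over all tested probes. For MCM2 the corresponding medians were 0.32, 0.30, 0.01 and -0.03. Its r was 0.70 for the 36 kDa subunit of activator 1 and 0.66 for DNA polymerase delta subunit 2. The inner centromere probes differed, with 0.67 for AN_v_12335 and 0.37 for An_u_12334. For p53, flap endonuclease-1 and dUTPase r with MCM2 was 0.55, 0.54 and 0.53. It was 0.26 and 0.28 for stathmin and -0.42 for CDK9, and the other named pathway probes ran from -0.15 to 0.28. MCM2 was itself well above background on only 10 of 15 arrays, so its r is less certain. These values are descriptions, since the probes were read on the same arrays and share their scaling.

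The 5 named probes outside the set whose deviations most resembled the mean of RRM1 and CDK1, the members well above background on all arrays, were in none of the 4 pathway lists. Among 4038 named probes compared over 15 arrays they were ubiquitin-conjugating enzyme E2 L3 (r = 0.83), glutaredoxin (0.79), hydroxysteroid dehydrogenase like 2, a probe named upregulated during skeletal muscle growth 5, and cytochrome c oxidase polypeptide VIII-liver (0.78 each). Their high-dose differences from control were -0.41 to 0.07. RRM1 and CDK1 themselves had an r of -0.21, and CDK1, with a within-group SD of 0.861 against 0.464, weighs more in their mean. The 5 were picked as the highest of 4038 values of r. How high such a pick would run without any link was not tested.

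**Figure D4:**
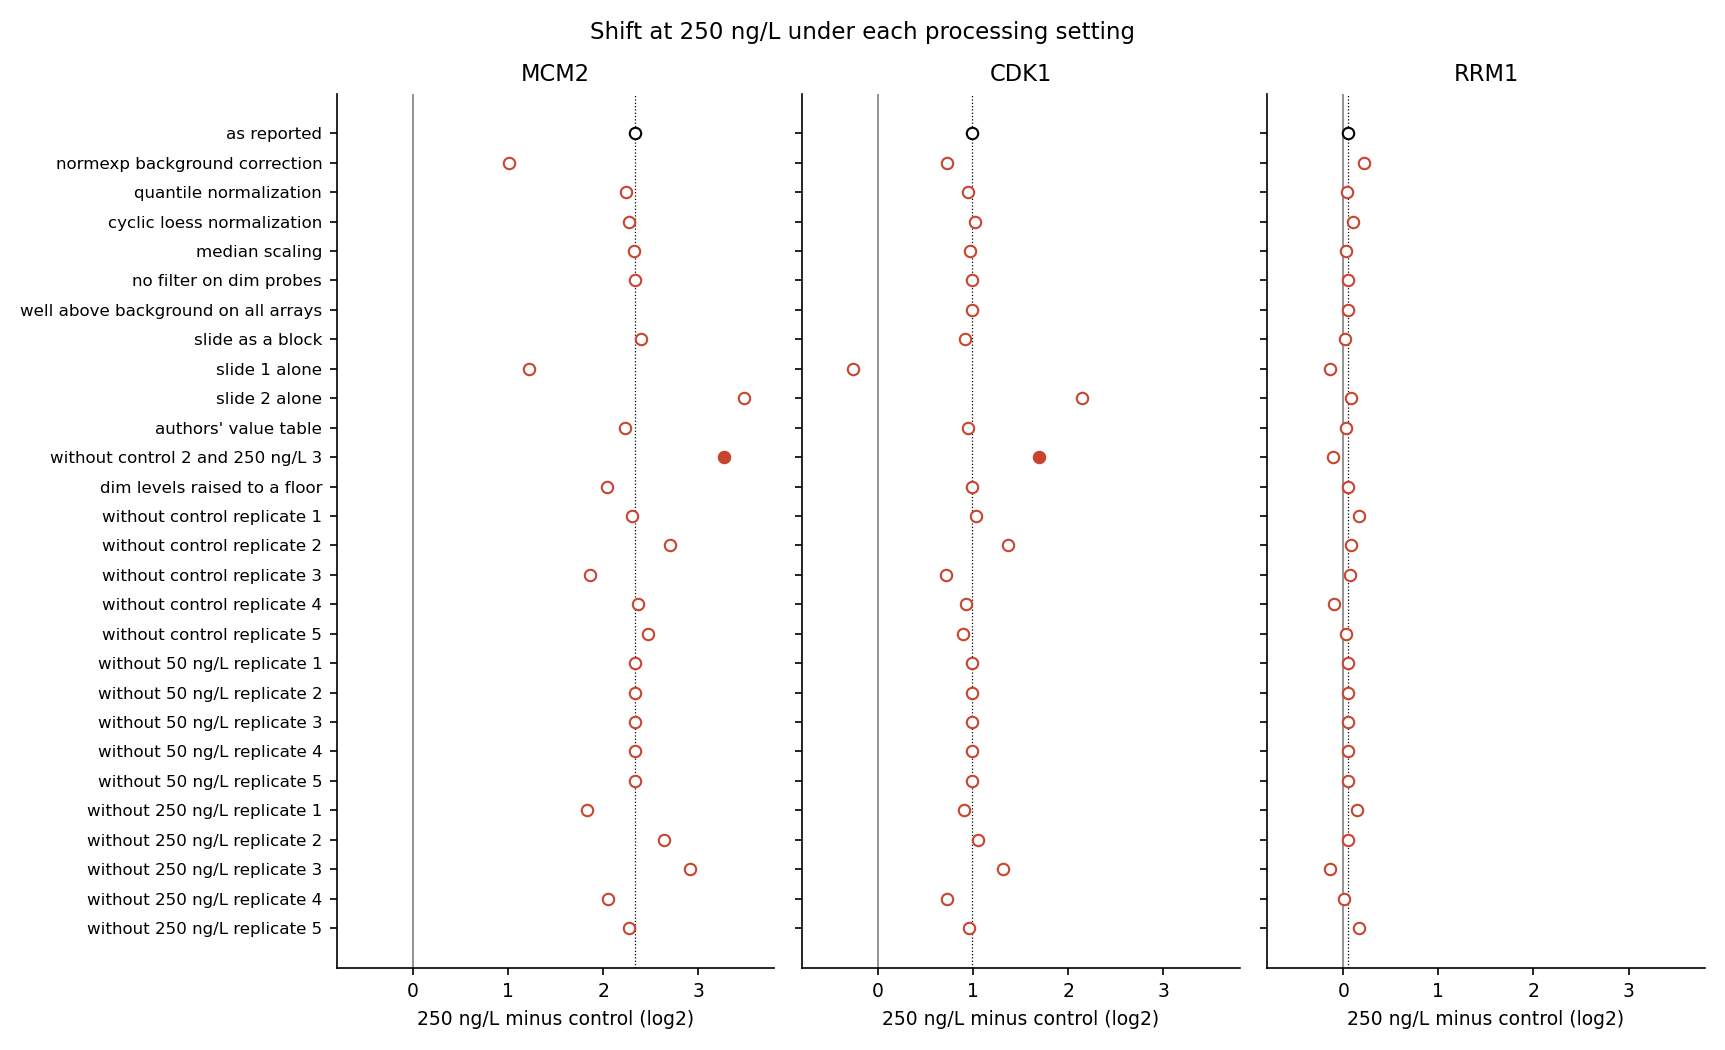
Difference between 250 ng/L and control (log2, horizontal axis) for MCM2, CDK1 and RRM1 under each way of processing the arrays; filled points have a limma adjusted p under 0.05, and the dotted line marks the reported value. MCM2 stays above 0 throughout (1.01 to 3.48), CDK1 is below 0 on slide 1 alone (-0.26), RRM1 scatters about 0, and the only filled points are those without control replicate 2 and high-dose replicate 3.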

How the data were processed

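Liver RNA of 15 samples was read on 1-colour (Cy3) Agilent arrays, per the labels. Per the file headers, Agilent Feature Extraction 10.7.1.1 made the processed signal intensity, which is background-subtracted and not scaled between arrays. A deposited table of log2 values from the authors, whose normalization the labels do not state, matched the arrays' log2 signals (r from 0.993 to 0.998) and served as an alternative; its column medians were 7.657 to 7.696, and its scaling is unknown. The probe names are those of the array's design and may be old. No sequence or genome build was used.

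Spots marked as outliers and 5 custom control probes were left out. The level is the mean over 2 spots of the log2 signal minus the array's 75th percentile. Probes well above background on at least 5 of 15 arrays were tested (6145 of 7152). One mean per group was fitted with limma 3.58.1 in R 4.3.3 over all arrays (12 residual degrees of freedom), with Benjamini-Hochberg adjustment and a threshold of 0.05. The code was tested on simulated data. Permutations for correlations (100000) shuffled arrays within groups. The number of arrays limits the precision, and p-values measure the spread between samples called biological replicates in the labels, which may be in part technical.

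The members and all gene lists were chosen with earlier results of these data known. Named genes were all members, the called probes of each pathway list with up to 4 of smallest p at 250 ng/L, and the 5 probes most like the members. Lists were matched by probe name and chance matches were removed by reading the names; thymidylate kinase and cyclins G1, I and T2 go beyond the lists as first worded. Alternatives were other background corrections, normalizations and filters, a floor for dim levels, slide, the deposited log2 table and leaving out arrays.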

Additional observations from a re-analysis of the deposited data

Results flagged for a closer look

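Among 60 sets of 5 replicates of the members and named pathway probes, 3 held an array that stood apart by Dixon's criterion, which chance meets in about 1 set in 20. Cyclin T2 had a level of -4.18 in low-dose replicate 2, while the other low-dose arrays lay between -3.60 and -3.46. Histone H1.0 had a level of -2.81 in control replicate 2, below the -2.28 to -2.23 of the other controls. Histone H1 (probe An_u_12083) had a level of 2.44 in control replicate 3, above the 1.58 to 1.70 of the other controls. None of these sets belongs to MCM2, CDK1, RRM1 or RRM2.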

How the results depend on the processing

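Over 27 alternatives (15 that leave out an array and 12 others; 26 for MCM2 and other dim probes), no member passed the test at 50 ng/L or between the doses, and at 250 ng/L members passed only without control replicate 2 and high-dose replicate 3, an alternative chosen after seeing the data: 2 members passed there, the members' median difference was 1.69 and 3 pathway probes were called (stathmin 2.30 and 1.82 with the inhibitor 1C), while RRM1 was -0.11. The members' median at 250 ng/L was -0.14 on slide 1 and 2.14 on slide 2, and 1.65 between the doses on slide 2. On slide 1 the high-dose differences that turned below 0 were RRM1 -0.14, CDK1 -0.26, activator 1 36 kDa -0.05 and the inner centromere probes -0.10 and -0.00074; CDK1 between the doses was -0.03 there, and at 50 ng/L CDK1 was -0.23 and MCM2 -0.19. RRM1 at 50 ng/L was 0.07 on slide 2, and CDK9 at 250 ng/L was 0.03 with normexp, under which the median of all probes moved from -0.05 to 0.10 at 250 ng/L and from -0.01 to 0.19 at 50 ng/L. The causes were not tested. Leaving out 1 array gave members' medians of 0.71 to 1.37 at 250 ng/L, with 0 called each time, MCM2 at 1.83 to 2.91 (lowest limma adjusted p 0.0626, without high-dose replicate 3), RRM1 at -0.14 to 0.17 (-0.14 without high-dose replicate 3, -0.10 without control replicate 4), and CDK1 at 50 ng/L at -0.08 (without control replicate 3) and -0.05 (without low-dose replicate 2) at its lowest and 0.59 at its highest. Pathway probes called at 250 ng/L numbered 1 to 3: 3 without control replicate 2 (stathmin 2.20 and 1.78 joined) and 2 without control replicate 4 (histone H2A, gonadal, 1.26, limma adjusted p 0.0472). They numbered 0 where only probes well above background on all arrays were tested, since the inhibitor 1C is not among those, and between the doses 0 under that filter, with normexp and on slide 1 or slide 2 alone. The inhibitor 1C passed at 250 ng/L in all 26 alternatives that kept it, with differences of 1.39 (normexp) to 3.16. No paired analysis was possible because the labels give no replicate numbers, and those used here only name the arrays. Signal near background limits MCM2, which was well above it on 10 of 15 arrays, and bars any value for RRM2.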
